A study of Mus musculus with 6 samples.

Results

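Globin and erythroid transcripts were followed in gastrocnemius muscle as a measure of the red cell RNA that each muscle library held. The 8 genes, taken by symbol from 23282 rows of the count tables, were the adult alpha globin genes Hba-a1 and Hba-a2, 4 rows of adult beta globin (Hbb-bs, Hbb-bt, Hbb-b1 and Hbb-b2), the erythroid haem synthesis gene Alas2 and the red cell anion exchanger gene Slc4a1. All 8 were found, and all 8 passed the filter on low counts that left 11700 genes for testing. The muscle came from 20-month-old male wild-type mice of the C57/BL6J strain. The inotodiol group of 3 mice had been given this triterpenoid of the chaga mushroom by mouth once a day for 10 weeks, at 0.35 mg/kg. The vehicle group of 3 mice had received the carrier, made of 40% polyethylene glycol, 5% Tween 80 and 0.9% saline. Each library is 1 mouse, made from whole muscle RNA, so any blood left in the vessels is part of the sample. Whether the animals were perfused before dissection is not given in the sources used here.

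Haemoglobin, the oxygen carrier of red cells, is a tetramer of alpha and beta globin chains, each holding a haem group. Mammalian red cells lose their nucleus, and the youngest ones in the blood, the reticulocytes, still carry globin messenger RNA for a short time. Alas2 encodes the erythroid form of the first enzyme of haem synthesis, and Slc4a1 encodes band 3, the protein that exchanges chloride for bicarbonate across the red cell membrane. Muscle fibres make another haem protein, myoglobin, from the gene Mb.

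The alpha globin genes lie on chromosome 11 of the mm10 mouse genome (GRCm38), Hba-a1 from 32283672 to 32284486 and Hba-a2 from 32296492 to 32297310. The adult beta globin genes of this strain lie on chromosome 7, Hbb-bt from 103812524 to 103813923 and Hbb-bs from 103826523 to 103827928. Alas2 lies on the X chromosome from 150547417 to 150570622, and Slc4a1 on chromosome 11 from 102348820 to 102365281, all by the RefSeq annotation. GENCODE M21 holds 6 of the 8 names and has no gene called Hbb-b1 or Hbb-b2, which are the names of the adult beta globin genes of another haplotype of the locus. In GENCODE M21 the antisense gene Apex2 spans all of Alas2. This is an overlap of gene spans, and overlap of exons was not examined. Without a stated strand setting, whether any reads were counted for both genes is not known. Apex2 had 42, 23 and 12 counts in vehicle 1 to 3 and 32, 7 and 15 in inotodiol 1 to 3, where Alas2 had 297, 249 and 208 and then 260, 599 and 162.

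The coding sequences of each globin pair are so alike that reads within them can be hard to assign. Where along the transcripts the reads of these Lexogen Quant-Seq libraries fell was not examined. The coding sequences of Hba-a1 and Hba-a2, 426 bases each without the stop codon, differ at 1 base (99.8% identity), and those of Hbb-bs and Hbb-bt, 441 bases each, also differ at 1 base (99.8% identity). Of the 377 windows of 50 bases in the Hba-a1 coding sequence, 331 occur unchanged in Hba-a2. Of the 392 such windows of Hbb-bs, 367 occur unchanged in Hbb-bt. After the stop codon the alpha transcripts still share 28 windows of 50 bases, whereas the beta transcripts share none (0). The stretches around the single differences are shown because they are what separates each pair within the coding sequence, from GENCODE M21 transcripts, 5′ to 3′, with the differing base in capitals. Positions count from 1 at the first base of the start codon. The change from Hba-a1 to Hba-a2 is C381T, and that from Hbb-bs to Hbb-bt is C417T.
Hba-a1: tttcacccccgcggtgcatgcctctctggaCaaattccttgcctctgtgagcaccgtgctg
Hba-a2: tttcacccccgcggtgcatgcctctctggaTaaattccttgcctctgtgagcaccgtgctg
Hbb-bs: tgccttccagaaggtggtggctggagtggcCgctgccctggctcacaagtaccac
Hbb-bt: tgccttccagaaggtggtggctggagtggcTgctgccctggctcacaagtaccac

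The promoters are shown as a description of these genes. Whether they had any part in the differences between libraries given below was not tested. RefSeq promoter windows (build GRCm38.p6) matched 5 of the 8 genes, and the 250 bases before the start were searched on both strands for 4 short motifs. The letters GATAA are the core bound by GATA factors, CACCC is the core bound by erythroid Krüppel-like factors, CCAAT is a general promoter element and TATAA marks a TATA box. Matches on either strand are in capitals, 5′ to 3′ on the strand of the gene. Hba-a1 and Hba-a2 share a run of 247 bases, so the Hba-a1 window (chr11:32283422-32283671) stands for both, while the longest run shared by Hbb-bs (chr7:103827929-103828178) and Hbb-bt (chr7:103813924-103814173) is 14 bases. The Alas2 window is chrX:150547167-150547416. Over all 32851 promoter windows of this length, GATAA or its complement occurred in 22.6%, CACCC in 52.0%, CCAAT in 33.8%, TATAA in 22.8% and all 4 in 0.968%.
Hba-a1: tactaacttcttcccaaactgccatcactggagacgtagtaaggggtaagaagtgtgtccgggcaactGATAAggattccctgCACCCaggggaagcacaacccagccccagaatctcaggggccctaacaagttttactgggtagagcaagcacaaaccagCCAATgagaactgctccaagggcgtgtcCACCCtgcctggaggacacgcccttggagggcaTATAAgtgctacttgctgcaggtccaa
Hbb-bs: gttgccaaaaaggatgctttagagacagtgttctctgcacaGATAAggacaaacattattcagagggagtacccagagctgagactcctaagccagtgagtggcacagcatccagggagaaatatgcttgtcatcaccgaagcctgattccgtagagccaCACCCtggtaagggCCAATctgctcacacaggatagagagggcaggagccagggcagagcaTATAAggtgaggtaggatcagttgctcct
Hbb-bt: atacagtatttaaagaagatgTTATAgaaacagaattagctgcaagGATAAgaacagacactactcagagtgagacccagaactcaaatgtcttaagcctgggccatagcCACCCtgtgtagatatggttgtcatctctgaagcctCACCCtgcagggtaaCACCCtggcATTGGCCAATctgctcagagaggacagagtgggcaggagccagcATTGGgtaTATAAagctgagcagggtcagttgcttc
Alas2: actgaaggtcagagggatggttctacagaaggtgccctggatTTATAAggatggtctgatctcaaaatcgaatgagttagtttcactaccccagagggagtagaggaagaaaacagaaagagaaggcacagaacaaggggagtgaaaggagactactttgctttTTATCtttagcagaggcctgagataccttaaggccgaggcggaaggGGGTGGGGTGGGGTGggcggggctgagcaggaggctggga

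All 4 motifs were found in the windows of Hba-a1, Hba-a2, Hbb-bs and Hbb-bt. In these windows the TATAA nearest the start lay from 27 to 30 bases before it, and the CACCC nearest the start from 60 to 90 bases before it. The Alas2 window held 1 GATAA match, 86 bases before the start, and 3 CACCC matches, from 30 to 40 bases before it, all on the other strand, and no (0) CCAAT. A match of letters is a description and says nothing of whether a factor was bound in these samples.

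Libraries held from 8961893 to 9953764 counts. The muscle identity of the samples was plain, as all 10 fibre markers listed were tested and together took from 140923 to 153252 CPM (counts relative to library size, scaled by the trimmed mean of M values, TMM). The precursor ribosomal RNA Rn45s took from 3.97% to 10.2% of counts, most in inotodiol 1 and inotodiol 2 (9.56%). Hepatocyte transcripts also differed between libraries: the 15 markers summed to 47.9, 102 and 64.8 CPM in vehicle 1 to 3 and to 728, 311 and 117 CPM in inotodiol 1 to 3.

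Alpha globin RNA was highest in inotodiol 2 and lowest in inotodiol 3, so the treated mice bracketed the untreated ones. The sum of Hba-a1 and Hba-a2 was 4129, 3180 and 2913 CPM in vehicle 1 to 3 and 4636, 8487 and 2181 CPM in inotodiol 1 to 3. Inotodiol 2 stood at 2.49 times the vehicle mean and inotodiol 3 at 0.640 times it. The highest library held 3.89 times the alpha globin RNA of the lowest, against 1.42 times among the vehicle mice alone. The vehicle mice had a mean of 3407 ± 639 CPM and the inotodiol mice one of 5101 ± 3179 CPM (SD, n = 3). The log2 fold change was 0.58 ± 0.32 (SE, 95% interval -0.12 to 1.28) with an adjusted p of 0.96 in edgeR's quasi-likelihood test, fitted over the whole table with the alpha rows summed. An exact permutation test of the log2 sums over the 6 libraries, two-sided, gave p = 0.6, where 3 against 3 cannot go below 0.1. In muscle RNA of this kind, fewer red cells and less RNA per red cell cannot be told apart. The labels call the samples of a group biological replicates. In edgeR the spread of each gene between these 6 samples is drawn toward that of all genes tested. Its p-values and standard errors thus do not measure the spread of 1 gene or sum alone. The unadjusted p of the alpha sum was 0.095 in edgeR, 0.35 with its robust option, 0.28 in DESeq2 and 0.25 in limma-voom.

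**Figure D1:**
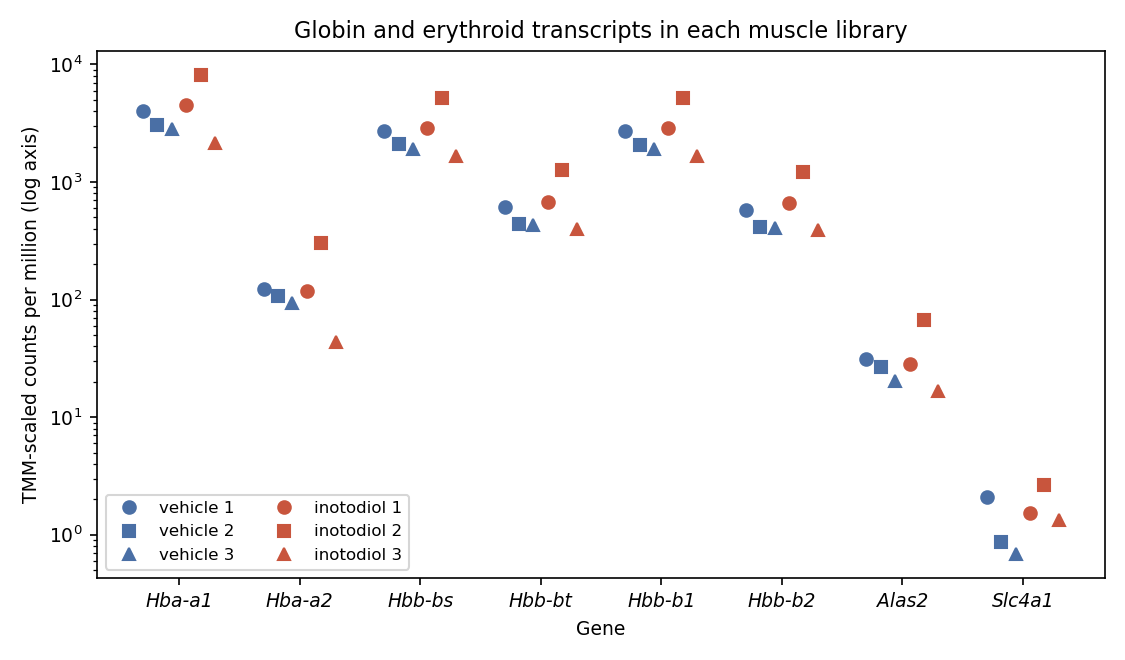
TMM-scaled CPM of the 8 genes on a log axis, with 1 symbol per library (blue for the 3 vehicle mice, red for the 3 inotodiol mice). Inotodiol 2 is the highest library for all 8 genes, and inotodiol 3 is the lowest for 7 of them, the exception being Slc4a1.

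Hba-a1 carried nearly all of the alpha globin counts. Its values were 4004, 3072 and 2818 CPM in vehicle 1 to 3 and 4518, 8182 and 2138 CPM in inotodiol 1 to 3. The groups overlapped, because inotodiol 3 lay below every vehicle library and the other inotodiol libraries above them. Its log2 fold change was 0.58 ± 0.32 (adjusted p 0.96 in edgeR).

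Hba-a2 followed the same mice over a wider range. It stood at 124, 108 and 94.5 CPM in vehicle 1 to 3 and at 118, 304 and 44.0 CPM in inotodiol 1 to 3, so that the highest library held 6.91 times the lowest. Its log2 fold change was 0.51 ± 0.44 (adjusted p 0.96 in edgeR), and it turned to -0.43 when inotodiol 2 was left out. Hba-a2 took 3.01%, 3.38% and 3.24% of the alpha globin counts in vehicle 1 to 3 and 2.54%, 3.58% and 2.02% in inotodiol 1 to 3. The exact (Clopper-Pearson) 95% binomial intervals, 3.45 to 3.71% in inotodiol 2 and 1.83 to 2.21% in inotodiol 3, did not meet. These intervals cover counting error only, as reads without molecular identifiers are not independent molecules. Between the groups this share overlapped (exact permutation p = 0.4, adjusted p 0.67 over the 4 ratios tested). How the counting assigned reads that match both alpha genes is not given in the sources used here.

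Beta globin was listed in 4 rows that held largely the same reads. Hbb-bs had 26043, 19381 and 19568 counts in vehicle 1 to 3 and 26786, 47090 and 16380 in inotodiol 1 to 3. Hbb-b1 had 25737, 19127 and 19306 and then 26655, 46516 and 16279. The Hbb-b1 count was thus from 98.7% to 99.5% of the Hbb-bs count in every library. The pair Hbb-b2 and Hbb-bt behaved alike, with Hbb-b2 at 94.0% to 97.7% of Hbb-bt. The sum of the 4 rows therefore counts most beta globin reads more than once, and beta globin is also given as Hbb-bs plus Hbb-bt.

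Hbb-bs plus Hbb-bt followed alpha globin from mouse to mouse. The sum was 3358, 2531 and 2356 CPM in vehicle 1 to 3 and 3585, 6500 and 2077 CPM in inotodiol 1 to 3, with group means of 2748 ± 535 and 4054 ± 2248 CPM (SD, n = 3). Again inotodiol 2 was highest, at 2.37 times the vehicle mean, and inotodiol 3 lowest, at 0.756 times it. The log2 fold change was 0.56 ± 0.29 (95% interval -0.058 to 1.18, adjusted p 0.96 in edgeR). The exact permutation p was 0.6. The sum of all 4 rows gave 6653, 5009 and 4661 CPM in vehicle 1 to 3 and 7138, 12877 and 4133 CPM in inotodiol 1 to 3. Its log2 fold change of 0.56 ± 0.29 (95% interval -0.048 to 1.18, adjusted p 0.96 in edgeR) differed little from that of the pair.

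The 4 beta rows had log2 fold changes from 0.54 to 0.69. Hbb-bs stood at 2743, 2092 and 1922 CPM in vehicle 1 to 3 and 2906, 5225 and 1679 CPM in inotodiol 1 to 3, a log2 fold change of 0.54 ± 0.29. Hbb-bt stood at 614, 438 and 434 CPM and then 679, 1275 and 399 CPM, a log2 fold change of 0.66 ± 0.30. Hbb-b1 was at 0.54 ± 0.29 and Hbb-b2 at 0.69 ± 0.29. In each row inotodiol 1 and 2 lay above all vehicle libraries and inotodiol 3 below them. Hbb-bt and Hbb-b2 had unadjusted p of 0.045 and 0.035 in edgeR's quasi-likelihood test, with adjusted p of 0.96 for both. The other tests gave these rows larger unadjusted p. They were 0.24 and 0.22 with edgeR's robust option, 0.19 and 0.17 in DESeq2, and 0.095 and 0.073 in limma-voom. With no filter on low counts these rows alone among the 8 passed the threshold, at adjusted p of 0.043 and 0.028 in edgeR. Under that setting 95 of all 16491 genes tested passed it, against 0 of 11700 in the main test. The Hbb-bt and Hbb-b2 rows hold largely the same reads. Leaving out inotodiol 2 lowered their log2 fold changes to 0.12 and 0.16.

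The balance between the beta genes was the 1 ratio tested in which the groups did not overlap. Hbb-bt made up 18.3%, 17.3% and 18.4% of the Hbb-bs and Hbb-bt counts in vehicle 1 to 3 and 18.9%, 19.6% and 19.2% in inotodiol 1 to 3. The means were 18.02% ± 0.607 and 19.2% ± 0.343 (SD, n = 3), a difference of 1.23 percentage points. The exact permutation p of 0.1 is the smallest that 3 against 3 can give, and adjusted over the 4 ratios it was 0.4. The exact binomial intervals of vehicle 3 (17.9 to 18.9%) and inotodiol 1 (18.5 to 19.4%) met. Hbb-b2 counts as % of Hbb-bt counts, a ratio that was not tested, also did not overlap between the groups. Its means were 94.4% ± 0.508 in vehicle and 96.8% ± 1.24 in inotodiol (SD, n = 3). Whether the counting of reads in these repeated rows had a part in the Hbb-bt balance was not tested.

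Alpha and beta globin kept a narrow ratio in 5 of the 6 libraries. There were 1.23, 1.26 and 1.24 alpha counts per beta count in vehicle 1 to 3 and 1.29 and 1.31 in inotodiol 1 and 2, with beta taken as Hbb-bs plus Hbb-bt. Inotodiol 3, the library with the least globin, stood at 1.05. The group means were 1.24 ± 0.0141 and 1.22 ± 0.144 (SD, n = 3), with an exact permutation p of 1. Together the alpha and beta counts took 0.793%, 0.572% and 0.559% of the library in vehicle 1 to 3 and 0.761%, 1.39% and 0.436% in inotodiol 1 to 3. On this scale, relative to the library total alone, inotodiol 1 lay just below vehicle 1, whereas on the TMM scale it lay above it.

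**Figure D2:**
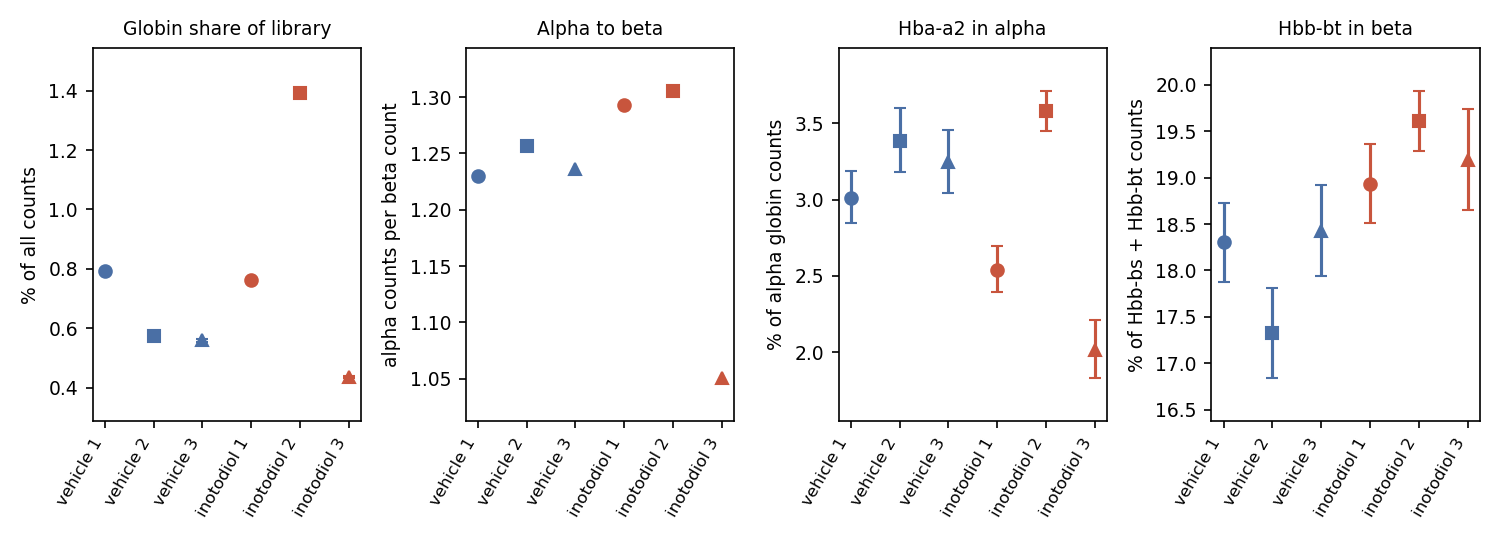
Globin share of all counts (%), alpha counts per beta count, Hba-a2 as % of alpha globin counts and Hbb-bt as % of Hbb-bs plus Hbb-bt counts, with 1 symbol per library and exact 95% binomial intervals for the shares (the y axes do not start at 0). Inotodiol 3 is lowest in globin share (0.436%), alpha to beta (1.05) and Hba-a2 share (2.02%), and the Hbb-bt share is the panel in which the groups do not overlap.

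Alas2 followed the globins. It had 31.3, 26.9 and 20.4 CPM in vehicle 1 to 3 and 28.2, 66.5 and 16.6 CPM in inotodiol 1 to 3, with inotodiol 2 at 2.54 times the vehicle mean. The groups overlapped at both ends. The log2 fold change was 0.50 ± 0.37 (95% interval -0.30 to 1.30, adjusted p 0.96 in edgeR), and -0.23 without inotodiol 2. Set against the alpha, Hbb-bs and Hbb-bt counts, Alas2 gave 4.18, 4.71 and 3.88 counts per 1000 globin counts in vehicle 1 to 3 and 3.43, 4.44 and 3.90 in inotodiol 1 to 3. This ratio spanned a far narrower range than Alas2 itself, and the groups overlapped (exact permutation p = 0.5, adjusted p 0.67).

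Slc4a1 was at the edge of detection. It had 20, 8 and 7 counts in vehicle 1 to 3 and 14, 24 and 13 in inotodiol 1 to 3, or 2.11, 0.864 and 0.687 and then 1.52, 2.66 and 1.33 CPM. Inotodiol 2 was again the highest library, but the lowest was vehicle 3. The log2 fold change was 0.59 ± 0.73 with a 95% interval from -0.99 to 2.16 and an adjusted p of 0.99 in edgeR, so a change of either sign was within its error at this depth.

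None (0) of the 8 genes was called, as was none of all 11700 genes (0%) at an adjusted p under 0.05. At an unadjusted p under 0.05 there were 2 of 8, against 4.87% of all genes tested. DESeq2 also called 0 of the 8, and 1 gene among all. All 8 log2 fold changes were above 0, with a median of 0.56, against 49.9% of all genes and a median of -0.00073. The 8 rows share mice and partly reads, so their common sign is not 8 observations. The groups overlapped in 8 of the 8, whereas in 10.4% of all genes tested they did not (5.15% higher and 5.26% lower in inotodiol). Without inotodiol 2 the median of the 8 fell to 0.031, with 6 of 8 above 0, and the alpha and beta sums had log2 fold changes of 0.00093 and 0.051. Without inotodiol 3 they had 0.95 and 0.88, at adjusted p of 0.11 and 0.15 in edgeR. The difference between the group means thus rested on inotodiol 2.

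**Figure D3:**
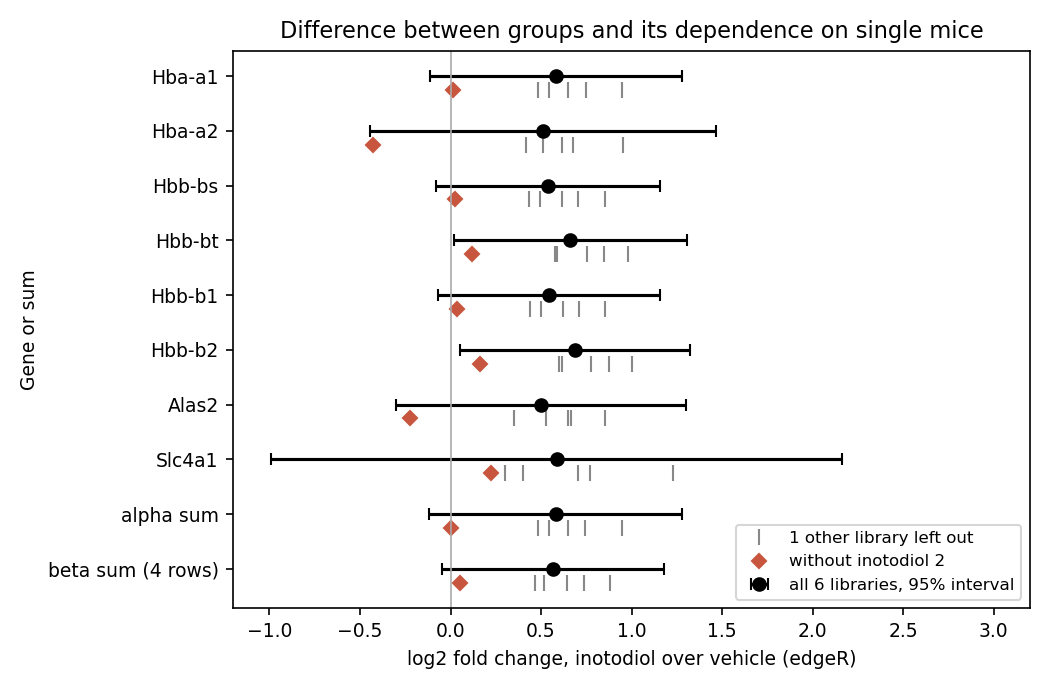
Log2 fold change of inotodiol over vehicle for the 8 genes and the globin sums, as black points with 95% intervals from edgeR, grey ticks for each of the other 5 libraries left out and red diamonds for inotodiol 2 left out. Without inotodiol 2 the alpha sum lies at 0.00093 and the beta sum at 0.051, while Hba-a2 (-0.43) and Alas2 (-0.23) lie below 0.

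What set the inotodiol group apart in the globins was the spread between its mice. The standard deviation of log2 CPM for Hba-a1 was 0.26 over the vehicle mice and 0.97 over the inotodiol mice, for Hbb-bs 0.27 and 0.82, and for Alas2 0.31 and 1.00. The median gene tested had 0.28 and 0.29. Of the 1230 genes that averaged 100 CPM or more, 3 had an inotodiol standard deviation as high as that of Hba-a1, itself included. For Hbb-bs the number was 8, itself included. The 3 included Hba-a2, and the 8 included Hba-a1, Hba-a2, Hbb-bt and Hbb-b2. Among all 11700 genes tested, whatever their level, the numbers were 811 and 1168. Slc4a1, at few counts, went the other way, with 0.73 and 0.48. With 3 mice in a group, whether the spread differs between the groups was not tested.

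Other globins did not share the pattern. The embryonic globin genes Hba-x, Hbb-y, Hbb-bh1 and Hbb-bh2 and the minor gene Hbq1a were at 0 in all 6 libraries, and Hbq1b had from 0 to 8 counts. A count of 0 allows up to 0.295 to 0.333 CPM, the worth of 3 counts, in these libraries. Mb, the myoglobin of muscle fibres, had 13998, 15166 and 15952 counts in vehicle 1 to 3 and 17606, 15291 and 17134 in inotodiol 1 to 3. On the CPM scale its groups did not overlap (1559 ± 81.8 and 1788 ± 110, SD, n = 3), and the log2 fold change was 0.20 ± 0.11 (adjusted p 0.96 in edgeR). Cygb, cytoglobin, a globin of connective tissue cells, stood at -0.031 ± 0.20.

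The rest of haem synthesis, taken as a sum, varied less between libraries than Alas2. Of the 8 other enzymes of the pathway, 4 had a log2 fold change above 0 and 4 below, with a median of 0.14, and none (0) was called. Their summed level ran from 205 to 237 CPM over the 6 libraries, with inotodiol 1 lowest and inotodiol 2 highest. The sum hides wider ranges of single enzymes at low counts. Uros ran from 0.977 CPM in inotodiol 1 (9 counts) to 5.60 CPM in vehicle 3 (57 counts). In 2 of the 8, Urod and Ppox, the groups did not overlap, with inotodiol higher, as in 5.15% of all genes tested, and both were highest in inotodiol 2. Urod, uroporphyrinogen decarboxylase, had 356, 299 and 302 counts in vehicle 1 to 3 and 359, 409 and 403 in inotodiol 1 to 3, a log2 fold change of 0.34 ± 0.17. Ppox, protoporphyrinogen oxidase, stood at 1.06 ± 0.63 on 10 to 29 counts. These enzymes serve every cell that makes haem, muscle fibres included.

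Of 14 red cell membrane genes 5 were at 0 in every library, among them Epb4.2, which encodes protein 4.2, a partner of band 3, and Rhag and Kel, which encode blood group proteins. Of the 6 tested, 4 lay above 0, with a median of 0.10 and 0 called. Epb4.1, which encodes protein 4.1 of the membrane skeleton and is made in many tissues, had 215, 193 and 195 CPM in vehicle 1 to 3 and 221, 262 and 206 CPM in inotodiol 1 to 3, highest in inotodiol 2 as the globins were. Ank1, which encodes an ankyrin of red cells with a small form in muscle, stood at 0.42 ± 0.18, and the spectrin gene Sptb, also used in muscle, at -0.17 ± 0.15.

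Of 8 transcription factors of red cell precursors, 2 were at 0 and 3 passed the filter on low counts. Klf1 and Gfi1b had 0 counts in all libraries, and Gata1 had 0 counts in the vehicle libraries and 8, 5 and 0 in inotodiol 1 to 3. Tal1, shared with endothelium, had from 1 to 28 counts and a log2 fold change of -0.78 ± 0.87, and Zfpm1, which encodes the GATA partner FOG1, had 44, 67 and 28 counts in vehicle 1 to 3 and 31, 31 and 7 in inotodiol 1 to 3, at -0.96 ± 0.59. Lmo2, an adaptor of these factors that endothelium also makes, had 16, 44 and 67 counts in vehicle 1 to 3 and 35, 34 and 42 in inotodiol 1 to 3. The 3 factors tested all lay below 0, with 0 called.

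Genes of red cell maturation and iron uptake held a median log2 fold change of 0.042, with 9 of the 15 tested above 0 and 0 called. Slc25a37, which encodes mitoferrin, the iron importer of mitochondria, had 345, 276 and 281 counts in vehicle 1 to 3 and 378, 439 and 353 in inotodiol 1 to 3. Its log2 fold change was 0.43 ± 0.18 (unadjusted p 0.038, adjusted p 0.96 in edgeR), and inotodiol 2 was its highest library. Ube2o, a ubiquitin ligase of reticulocytes that is also made elsewhere, had 376 counts in inotodiol 2 and from 206 to 272 in the others, at 0.30 ± 0.23. Blvrb, biliverdin reductase B, stood at -0.49 ± 0.36. Over the erythroid lists together, 51 rows were found, 32 were tested, 17 lay above 0 and the median was 0.013, with 3 at an unadjusted p under 0.05. Scaled by library totals alone, 13 of the 32 lay above 0 and the median was -0.11, beside a shift of the median of all genes to -0.12.

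Among genes that clear haemoglobin 0 of the 6 tested were called, and among those that sense oxygen 0 of 7. Hpx, hemopexin, a haem carrier made by the liver, had 0, 13 and 6 counts in vehicle 1 to 3 and 138, 35 and 12 in inotodiol 1 to 3. It was highest in inotodiol 1, as was the hepatocyte marker Alb (2320 counts there and 938 in inotodiol 2), and not in inotodiol 2, where the globins were highest. Hif1a, the oxygen-sensitive transcription factor subunit, had 174, 113 and 119 counts in vehicle 1 to 3 and 105, 79 and 92 in inotodiol 1 to 3, a log2 fold change of -0.51 ± 0.27 (adjusted p 0.96 in edgeR). The hormone gene Epo was at 0 in every library.

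Markers of other blood cells moved in other libraries. Platelet markers summed to 22.3, 31.8 and 44.1 CPM in vehicle 1 to 3 and 29.1, 33.4 and 15.9 CPM in inotodiol 1 to 3; 2 of the 13 were at 0 in every library and 5 were tested, all with log2 fold changes below 0. Pf4, platelet factor 4, stood at -0.64 ± 0.37. Among platelet genes picked after their values were seen, Ppbp had 5, 36 and 2 counts in vehicle 1 to 3 and 0, 53 and 4 in inotodiol 1 to 3, and Treml1 had 4, 2 and 2 and then 12, 28 and 0, both most in inotodiol 2. Neutrophil markers summed to 10.0, 3.35 and 4.12 CPM in vehicle 1 to 3 and 6.62, 4.88 and 18.2 CPM in inotodiol 1 to 3, so that their highest library was the one with the least globin. S100a8, a calcium-binding protein gene of neutrophils likewise picked after its values were seen, had 24, 0 and 7 counts in vehicle 1 to 3 and 2, 0 and 83 in inotodiol 1 to 3. Macrophage markers were highest in vehicle 3 (253 CPM) and lowest in inotodiol 2 (57.3 CPM), and endothelial markers ran from 143 to 180 CPM. The part of these cells, of the hepatocyte transcripts and of Rn45s in the globin values was not tested.

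**Figure D4:**
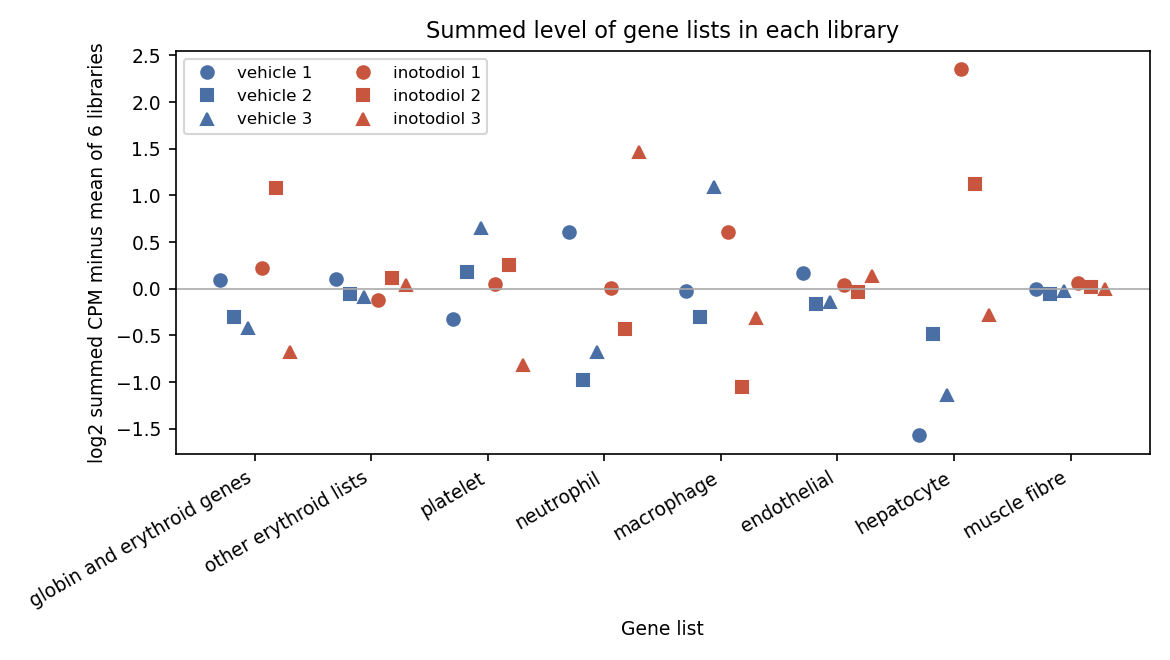
Summed CPM of each gene list as log2 difference from the mean over the 6 libraries, with 1 symbol per library (blue vehicle, red inotodiol). The globin and erythroid genes are highest in inotodiol 2 and lowest in inotodiol 3, the hepatocyte markers are highest in inotodiol 1, the neutrophil markers in inotodiol 3 and the macrophage markers in vehicle 3, while the other erythroid lists, plotted as 1 sum of all 4, and the muscle fibre markers lie close to 0.

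The genes whose levels were most like the summed globins over the 6 libraries were sought among 8471 others that averaged 5 CPM or more. The 6 with the highest Pearson r of log2 CPM, from 0.97 to 0.99, were Rps19bp1, 4930579G18Rik, Atg5, Htatsf1, Mettl5 and Atg4c. Of the 8471 genes, 48 had r above 0.9 and 60 had r below -0.9; the list is a description with no test. The size of the range differed among the 6. Atg4c had 5.27, 4.86 and 4.42 CPM in vehicle 1 to 3 and 6.94, 11.7 and 2.66 CPM in inotodiol 1 to 3, highest and lowest in the same libraries as the globins and over a range as wide. Htatsf1 had 97.5, 95.2 and 94.7 CPM in vehicle 1 to 3 and 105, 131 and 87.5 CPM in inotodiol 1 to 3, the same order over a smaller range than that of the globins.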

How the data were processed

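Whole-muscle RNA of 6 mice, 3 in each group, was sequenced from Lexogen Quant-Seq libraries made with 500 ng of input, per the labels' protocols. The authors deposited 1 table per library with a whole-number count for each of 23282 rows of gene symbols, 44 of which repeat a symbol. Bowtie2, bedtools and the mm10 build are named in the submitters' processing notes, while the annotation, the strand setting, the read length and the treatment of reads with several matches were not given in the sources used here. Low counts were removed by filterByExpr (minimum count 10, minimum total 15). The main test was edgeR 4.0.16 in R 4.3.3 after TMM scaling: quasi-likelihood, group as the only term, two-sided, Benjamini-Hochberg over all genes tested, threshold 0.05. A standard error is the absolute log2 fold change over the square root of the F statistic. For each sum, the rows summed were replaced by 1 row and the whole table was refitted. The scripts were tested on simulated data. Of 168 listed genes 164 were matched to rows, 2 of them through older symbols, and the others were not analysed here. Members and lists were chosen with earlier results of these data known. The rule named all members, up to 4 genes of each list by smallest p, genes at 0 that define a cell type, and the 6 genes most like the globins (prior count 2). Some genes that the rule names are not reported here. Alternatives were other scalings and filters, DESeq2 1.42.0, limma-voom (limma 3.58.1), edgeR's robust option, the replicate block, other beta sums and each library left out.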

Additional observations from a re-analysis of the deposited data

How the results depend on the processing

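The count of genes called, 0 of 11700 in edgeR, was 95 of 16491 with no filter on low counts and 1 of 11700 with DESeq2. When libraries were dropped one at a time it was between 0 and 25 (the 25, of 12141 tested, without inotodiol 3). The count of members called was 2 with no filter and 0 in every other alternative run, and no erythroid list gene was called in any. The alpha sum ranged from 0.00093 to 0.95 (log2) and the beta sum from 0.051 to 0.88, the low end without inotodiol 2 and the high end without inotodiol 3, and the smallest adjusted p were 0.11 (without inotodiol 3) and 0.075 (no filter). Leaving the repeated beta rows out of the table, an alternative chosen after seeing the data, gave 0.56. Values of single genes turned sign without inotodiol 2 for Hba-a2 (-0.43), Alas2 (-0.23), 4930579G18Rik (-0.12), Atg5 (-0.021) and Atg4c (-0.015), with library totals for Atg5 (-0.062), and for Cygb without vehicle 1 (0.17) and without inotodiol 1 (0.098). With libraries left out one by one, the highest values of the first 5 were 0.95, 0.85, 0.62, 0.12 and 0.94, and the lowest of Cygb was -0.18. Of 650 such values, 635 kept direction and side of the threshold. With the replicate block the alpha and beta sums were 0.38 and 0.42 and no member was called. Same-numbered samples share only a number: their deviations correlated at -0.081, 0.11 and 0.022, and only vehicle 2 correlated best with its own number. Leaving out a library changes the number of samples and genes tested; the cause of other changes was not tested. With a prior count of 0.5 the same 6 genes were most like the globins. Depth limits Slc4a1, Gata1 and Tal1, all at low counts.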
